A study of Mus musculus with 53 samples.

Results

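Plau, Plat, Plaur, Serpine2 and Serpinb2, genes of the plasminogen activator system, were followed in mouse proximal colon and small intestine after activation of BRAF, deletion of the TGFβ receptor gene Alk5 or loss of Apc. They were chosen by symbol, with earlier results of these data known, and are 5 of the 55421 genes in the count table. Plau is ENSMUSG00000021822 (chromosome 14 of GRCm38, 20836660 to 20843385, plus strand). Plat is ENSMUSG00000031538 (chromosome 8, 22757727 to 22782844, plus strand). Plaur is ENSMUSG00000046223 (chromosome 7, 24462484 to 24475968, plus strand). Serpine2 is ENSMUSG00000026249 (chromosome 1, 79794197 to 79861180, minus strand). Serpinb2 is ENSMUSG00000062345 (chromosome 1, 107511423 to 107535478, plus strand), and it shares 291 exon bases with Serpinb10 on the same strand. All are protein-coding, and the values below are reads on their exons.

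Plasminogen is an inactive protease that circulates in blood and enters tissue fluid. Urokinase, encoded by Plau, and tissue plasminogen activator, encoded by Plat, cut it into plasmin, which dissolves fibrin, degrades matrix proteins and releases or activates growth factors. Plaur encodes the urokinase receptor, which holds urokinase at the cell surface, while the serpins encoded by Serpine2 (protease nexin 1) and Serpinb2 inhibit the activators. In the gut the system is known from wound repair and from the invasive edge of tumours, where epithelial, stromal and myeloid cells can each supply parts of it.

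RNA of whole tissue from 53 mice in 11 groups was sequenced, 1 library per mouse. Every mouse, WT included, carried VilCreER, a tamoxifen-induced recombinase driven by the villin promoter and so restricted to the intestinal epithelium, and WT mice carried no other engineered allele. In the proximal colon, BrafV600E/+ Alk5fl/fl mice (BA) gave primary tumours (n = 4), with WT proximal colon (n = 3) as their control. On day 30 after induction, proximal colon was taken from BA mice (d30 BA, n = 5), BA mice on antibiotics (n = 5), Alk5fl/fl mice (d30 A, n = 4), Alk5fl/fl mice on sulindac (n = 4) and WT mice (d30 WT, n = 4). The antibiotics were ampicillin, neomycin and metronidazole at 1 g/L each and vancomycin at 500 mg/L. Sulindac, an inhibitor of prostaglandin synthesis, was given at 0.4 g/L for 14 days, after which these mice drank normal water. Small intestine was taken on day 4 after induction from Apcfl/fl mice (n = 10) and WT mice (n = 6), all labelled, like the colon groups, as of a mixed C57BL/6J background. Primary tumours of the small intestine from Apcfl/+ mice (n = 5) and WT small intestine (n = 3) came from mice labelled as inbred C57BL6/J. The labels give neither age, nor the sex of single mice, nor a sequencing batch.

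The libraries held between 516985 and 32824795 reads on genes, and at a group's median total 3 counts correspond to 0.138 to 0.192 CPM (counts scaled to a common library total), a floor that covers counting error only. Apcfl/fl mouse 1 held the smallest total. Epithelial, fibroblast, smooth muscle, endothelial, macrophage and neutrophil markers were detected in every group, as whole intestinal tissue would hold. Ddx3y, a Y-linked gene, was over 10 CPM in 3 of 4 BA tumours and 0 of 3 WT proximal colons, and in 1 of 5 Apcfl/+ tumours and 3 of 3 of their WT small intestines. Reads of the gene model Gm13394 split libraries too: they were over 10 CPM in every library of the 4 mutant day-30 groups and in 0 of 4 d30 WT mice, in 3 of 4 BA tumours and 0 of 3 WT proximal colons, and in 0 of 5 Apcfl/+ tumours and 3 of 3 of their WT. Ddx3y thus overlaps with genotype in part, so both tumour comparisons were also fitted with a term for sex. In these fits the effect rests on the only BA tumour without Ddx3y over 10 CPM, or the only Apcfl/+ tumour with it, beside 3 WT mice. They therefore cannot separate sex from that mouse. Gm13394 cannot be told apart from genotype at day 30 against WT or in Apcfl/+ tumours. Braf, Tgfbr1 (the gene of ALK5) and Apc were detected in every library, in counts that do not separate recombined from intact transcripts.

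The RefSeq promoter table of GRCm38.p6 held 3 of the 5 genes, and the promoters of Plaur and Serpine2 are shown because both genes rose in both kinds of tumour, while at day 30 the first was higher and the second lower in BA mice. Each line gives the 250 bases before a start site, with the motifs searched in capitals. The motifs were the AP-1 site TGANTCA, the TATA box TATAAA and the GC box GGGCGG, each sought on both strands.
Plaur, chr7:24462233-24462482, plus strand: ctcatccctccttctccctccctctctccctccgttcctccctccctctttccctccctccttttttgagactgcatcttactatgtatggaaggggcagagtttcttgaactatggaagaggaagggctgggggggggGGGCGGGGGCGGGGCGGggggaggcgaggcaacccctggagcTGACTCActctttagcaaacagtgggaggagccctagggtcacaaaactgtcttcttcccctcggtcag
Serpine2, chr1:79858666-79858915, minus strand: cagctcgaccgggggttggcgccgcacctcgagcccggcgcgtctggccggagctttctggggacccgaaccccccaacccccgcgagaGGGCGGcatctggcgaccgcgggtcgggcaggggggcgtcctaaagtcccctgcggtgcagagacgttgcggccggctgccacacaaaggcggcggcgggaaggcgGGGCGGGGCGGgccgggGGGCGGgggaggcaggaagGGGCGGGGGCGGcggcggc
The Plaur window held 1 AP-1 match, TGACTCA, with 62 bases between it and the start site, and 3 GC boxes. An AP-1 match stood in 7.81% of all 32851 promoters of 300 bases, a GC box in 35.7% and a TATA box in 13.6%. The Serpine2 window held 6 GC boxes and neither of the other motifs, and 77.7% of its 300 bases were G or C, against a median of 52.7% over all promoters. In each window 1 pair of GC boxes shares a base. The Serpine2 start lies inside the annotated gene, downstream of its outermost end. These are matches of letters and were not measured as binding sites. Plau and Plat were not in the table.

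Levels are given as normalised CPM, scaled by TMM (trimmed mean of M values) over all 53 libraries, with the SD over mice. Each comparison was fitted on its 2 groups alone with edgeR's quasi-likelihood test, two-sided, and p-values were adjusted by the Benjamini-Hochberg method over all genes tested, with a threshold of 0.05. A log2 fold change is that of the fit, and its standard error (SE) follows. The spread is that between mice of a group, and in whole tissue more cells of a type and more RNA per cell cannot be told apart.

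**Figure D1:**
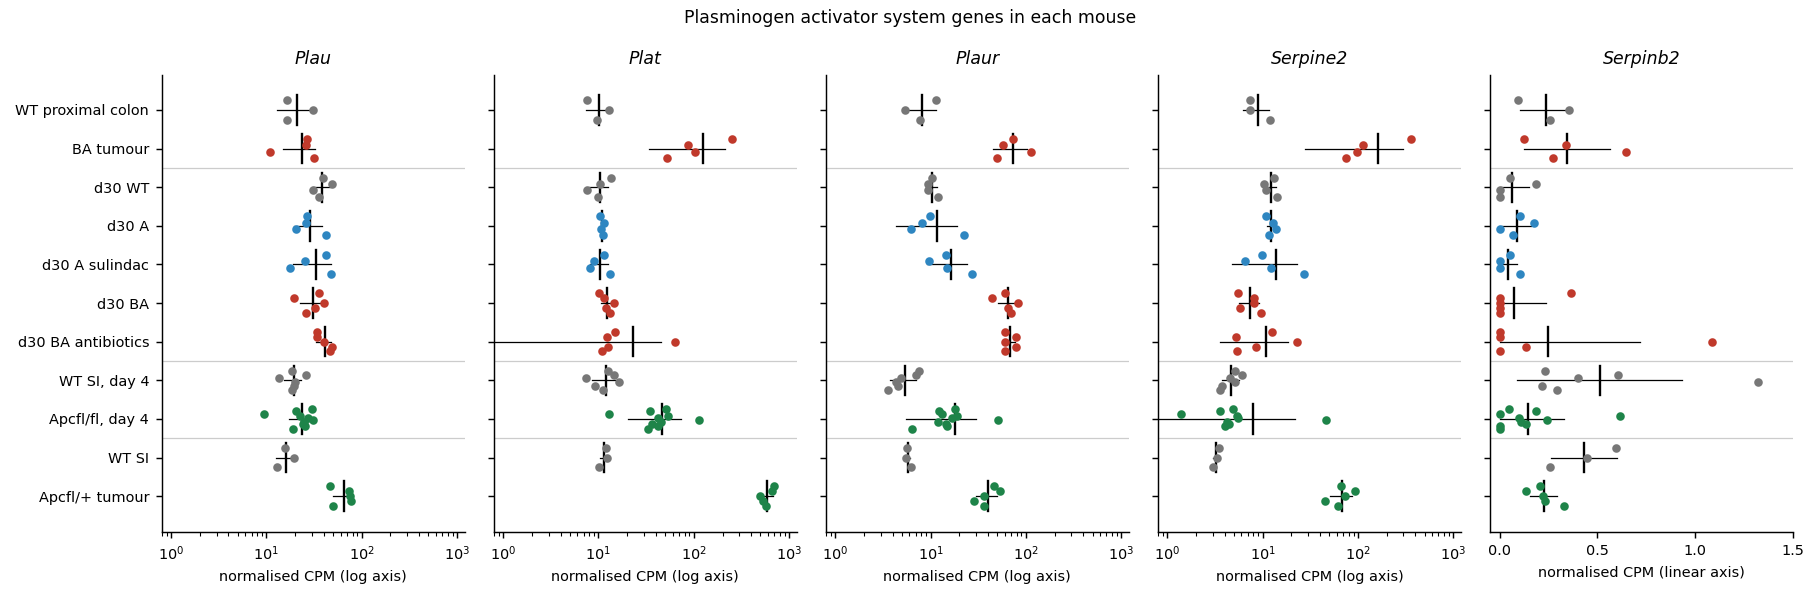
Normalised CPM of each gene (x axis, log scale except for Serpinb2, which is linear) in each of the 53 mice (points), by group (rows), with the group mean (vertical bar) and 1 SD (horizontal line, clipped at the axis). Plat and Serpine2 stand highest in the tumour groups, Plaur also in both day-30 BA groups, and Serpine2 of Apcfl/fl mouse 1, at 0, is not drawn on the log axis.

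The activator gene Plat had the largest single change of the system, in Apcfl/+ tumours. It was at 568, 531, 496, 653 and 692 normalised CPM in tumours 1 to 5 and at 10.1, 12.3 and 12 in WT small intestine. All 5 tumours were far above all 3 WT mice, with means of 588 ± 82.5 (SD, n = 5) and 11.5 ± 1.21 (SD, n = 3). The log2 fold change was 5.78 (SE 0.20, adjusted p = 3.64e-06), or 54.9-fold. On day 4 after loss of both Apc copies, Plat ranged from 12.8 to 114 normalised CPM in 10 Apcfl/fl mice (median 42.1) and from 7.38 to 16.3 in 6 WT mice (median 11.9). Only Apcfl/fl mouse 8, at 12.8, lay within the WT range. The log2 fold change was 1.99 (SE 0.32, adjusted p = 7.47e-05), and without mouse 5, at 114, it was 1.73 (adjusted p = 2.29e-05). The rise was larger in Apcfl/+ tumours than on day 4 by 3.75 on the log2 scale (SE 0.50, adjusted p = 2.27e-05), as tested by an interaction over the 4 groups. Cell type markers shifted on day 4 as well: the endothelial sum was 66.4 to 168 CPM in Apcfl/fl mice against 187 to 226 in WT mice. Median sums were 304 against 537 for macrophage markers, 26.4 against 43.4 for neutrophil markers, 1150 against 1346 for fibroblast markers and 9556 against 12323 for epithelial markers. Of these lists 6 of 8 endothelial, 3 of 10 macrophage, 2 of 6 tested neutrophil and 2 of 10 epithelial markers were called lower. The epithelial list also had 1 marker called higher. Among all genes tested, 4688 of 17536 were called lower and 54.2% in either direction, so only the endothelial share stood well apart. The part of these markers in the rise of Plat or Plaur was not tested.

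In BA tumours 1 to 4, Plat was at 51.8, 102, 86.1 and 253 normalised CPM, and in WT proximal colon at 9.66, 12.8 and 7.63. Every tumour exceeded every WT mouse, and tumour 4 stood highest. Its log2 fold change was 3.61 (SE 0.56, adjusted p = 0.00507), and 3.00 (adjusted p = 0.00366) without tumour 4. With a term for sex it was 2.28 and no longer passed (adjusted p = 0.0896). In the day-30 colon Plat was at 13.4, 12.1, 14.7, 11.5 and 10.2 in d30 BA mice and at 9.94, 7.5, 10.4 and 13.4 in d30 WT mice. These ranges overlapped, and the log2 fold change of 0.25 (95% interval -0.07 to 0.57, adjusted p = 0.220) did not pass the test. The effect in BA tumours exceeded that at day 30 by 3.35 on the log2 scale (SE 0.52, adjusted p = 0.000633), and fell short of that in Apcfl/+ tumours, with a difference of -2.15 (SE 0.54, adjusted p = 0.00777). Neither difference was fitted with a term for sex. Plat in d30 A mice (10.4 to 11.4) and in d30 A mice on sulindac (8.23 to 13.2) stayed within the range of d30 WT mice. The 4 mutant day-30 groups are each compared with the same 4 WT mice, so their comparisons are not independent.

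Among BA mice on antibiotics, Plat was at 10.8, 12.7, 63.2, 12.3 and 15.0 normalised CPM. Mouse 3 stood apart while the other 4 were near WT, and the log2 fold change against d30 WT of 1.19 (SE 0.56, adjusted p = 0.116) fell to 0.28 (adjusted p = 0.205) without it. In that mouse the summed level of the 10 fibroblast markers was 7774 CPM, against 1200 to 1709 in the other 4. Its neutrophil (53.6 against 7.26 to 10.3), macrophage (726 against 230 to 302) and endothelial sums (247 against 121 to 150) were also highest. Its epithelial sum was lowest, at 18714 against 24540 to 29187. Whether any of this bears on Plat was not tested. Against d30 BA mice the log2 fold change was 0.93 (adjusted p = 0.217), and 0.03 without mouse 3.

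Plau, the urokinase gene, changed in 1 of the 7 comparisons with WT. In Apcfl/+ tumours it was at 50.3, 77.3, 76.0, 74.0 and 46.5 normalised CPM and in WT small intestine at 12.9, 19.5 and 15.8. The groups did not overlap, and the log2 fold change was 2.12 (SE 0.23, adjusted p = 0.000141). On day 4, Plau ranged from 9.39 to 30.6 in Apcfl/fl mice (median 24.3) and from 13.6 to 25.9 in WT mice (median 19.0), and the log2 fold change of 0.30 (adjusted p = 0.174) did not pass the test. Without Apcfl/fl mouse 8, the lowest, it was 0.38 and passed (adjusted p = 0.0162). In BA tumours Plau was at 31.2, 10.9, 26.1 and 27 and in WT proximal colon at 16.4, 30.52 and 16.3, overlapping throughout, with a log2 fold change of 0.16 (95% interval -0.55 to 0.86, adjusted p = 0.821). The rise in Apcfl/+ tumours exceeded that on day 4 by 1.78 (SE 0.32, adjusted p = 0.000431) on the log2 scale. The effect in BA tumours differed from that in Apcfl/+ tumours by -1.92 (SE 0.45, adjusted p = 0.00509).

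At day 30, Plau levels overlapped between all 5 groups of the proximal colon. They ranged from 30.7 to 49.1 normalised CPM in WT mice, from 19.4 to 40.1 in d30 BA mice and from 33.5 to 49.1 in BA mice on antibiotics. In d30 A mice they ranged from 20.3 to 41.9, and in d30 A mice on sulindac from 17.7 to 48.0. The log2 fold changes against WT were -0.35, 0.07, -0.42 and -0.21 for d30 BA, BA on antibiotics, d30 A and sulindac-treated d30 A mice, with adjusted p-values of 0.146, 0.735, 0.530 and 0.808. The WT levels themselves differed in height between the controls, with means of 38.7 ± 7.79 (SD, n = 4) at day 30 and 21.1 ± 8.18 (SD, n = 3) in the WT proximal colon set beside the tumours, a gap for which no test was made.

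Per kb of exon, the scale on which genes can be set beside each other, Plat moved from the lower to the higher of the 2 activator transcripts in most tumours. Plat made up 71.2% to 84.9% of the sum of Plat and Plau per kb in Apcfl/+ tumours (median 77.0%), and 19.4% to 22.9% in WT small intestine. In BA tumours 1 to 4 the share was 38.7%, 78.1%, 55.6% and 78.1%, and in WT proximal colon 13.7% to 18.3%. Tumour 2 combined a high share with the lowest Plau level of the group. On day 4 the share was 34.1% to 58.5% in Apcfl/fl mice and 15.2% to 23.8% in WT mice, and at day 30 it was 9.75% to 18.3% in BA mice and 7.45% to 11.4% in WT mice. The tumour and day-4 shares did not overlap with their own WT, while those of d30 BA and d30 WT mice did.

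Plaur, the urokinase receptor gene, was the member that rose in every group with activated BRAF or recombined Apc. In BA tumours it was at 50.3, 113, 57.5 and 74.0 normalised CPM and in WT proximal colon at 7.78, 5.35 and 11.5. All tumours lay above all WT mice, and the log2 fold change was 3.15 (SE 0.39, adjusted p = 0.00248), or 8.88-fold. With a term for sex it was 2.51 (adjusted p = 0.0506). In Apcfl/+ tumours Plaur was at 36.4, 28.6, 36.2, 54.1 and 46.0, against 6.19, 5.58 and 5.67 in WT small intestine. The groups were again apart, with a log2 fold change of 2.89 (SE 0.22, adjusted p = 3.02e-05). On day 4 it ranged from 6.37 to 51.5 in Apcfl/fl mice (median 14.6) and from 3.56 to 7.60 in WT mice (median 4.75). Apcfl/fl mouse 1, a library with 4 Plaur reads, fell within the WT range, and mouse 5 was the highest. Its log2 fold change was 1.79 (SE 0.33, adjusted p = 0.000258), and without mouse 5 it was 1.46 (adjusted p = 2.35e-05). Within the 7 libraries with Gm13394 at or under 10 CPM and the 9 above it, the rise of Plaur was 1.68 and 1.72 (log2, adjusted p = 6.56e-05 and 0.0195), and that of Plat 1.77 and 2.12 (adjusted p = 5.33e-05 and 0.0176).

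Plaur was already high in BA mice 30 days after induction. It was at 70.1, 64.8, 81.8, 44.5 and 60.6 normalised CPM in d30 BA mice and at 12.1, 9.33, 9.44 and 10.5 in d30 WT mice. The lowest BA mouse was above the highest WT mouse, and the log2 fold change was 2.63 (SE 0.16, adjusted p = 3.49e-07), or 6.18-fold. Under antibiotics Plaur was at 61.1, 78.2, 60.2, 78.2 and 60.7, a log2 fold change of 2.72 against WT (SE 0.13, adjusted p = 2.38e-07). Treated and untreated BA mice overlapped, and their difference on the log2 scale was 0.08 (95% interval -0.21 to 0.36, adjusted p = 0.748). The effect in BA tumours relative to their WT was not called different from that at day 30, with a difference of 0.51 on the log2 scale (95% interval -0.21 to 1.23, adjusted p = 0.377). Nor was it called different from that in Apcfl/+ tumours, where the difference was 0.28 (95% interval -0.52 to 1.09, adjusted p = 0.60). Between Apcfl/+ tumours and day 4 the effects differed by 1.04 (adjusted p = 0.120), or by 1.38 (adjusted p = 0.00231) without Apcfl/fl mouse 5.

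Deletion of Alk5 without activated BRAF left most Plaur levels near WT in mice without sulindac. In d30 A mice Plaur was at 22.5, 6.28, 8.17 and 9.76 normalised CPM, where mouse 1 alone exceeded the WT range. The log2 fold change against WT was 0.18 (95% interval -0.48 to 0.85, adjusted p = 0.839), and it turned to -0.35 without mouse 1. That mouse also had the highest summed epithelial markers of the group, at 18898 CPM where the group's median was 11295. With sulindac, Plaur was at 27.1, 14.9, 9.74 and 14.4, and all but mouse 3 exceeded the highest WT mouse, at 12.1. The log2 fold change against WT was 0.69 (95% interval 0.16 to 1.22) and did not pass the test (adjusted p = 0.517). Against untreated d30 A mice it was 0.53 (95% interval -0.29 to 1.35, adjusted p = 1.00). Relative to d30 A mice, Plaur in d30 BA mice was higher by 2.49 on the log2 scale (SE 0.33, adjusted p = 0.000143), with no overlap, and Gm13394 was over 10 CPM in every library of both groups.

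**Figure D2:**
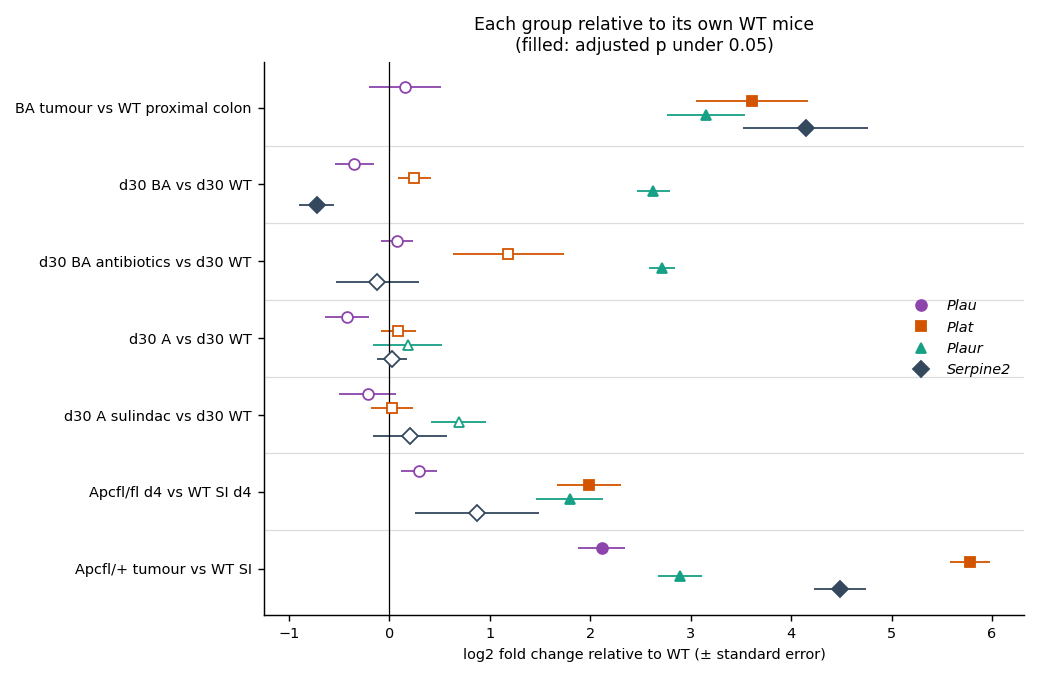
Log2 fold change of Plau, Plat, Plaur and Serpine2 relative to the WT mice of each group (x axis), with the standard error of the edgeR fit, for 7 comparisons (y axis). Filled symbols have an adjusted p under 0.05, as Plaur does in the 5 groups with activated BRAF or recombined Apc, and the largest change is that of Plat in Apcfl/+ tumours, at 5.78.

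The inhibitor gene Serpine2 rose in both kinds of tumour and was lower in the colon of BA mice at day 30. In BA tumours it was at 75.0, 97.0, 112 and 359 normalised CPM and in WT proximal colon at 12, 7.41 and 7.39. All 4 tumours exceeded the WT mice, with a log2 fold change of 4.14 (SE 0.62, adjusted p = 0.00455), or 3.39 (adjusted p = 0.00166) without tumour 4. With a term for sex it was 2.96 and did not pass (adjusted p = 0.0795). In Apcfl/+ tumours it was at 62.5, 44.7, 74.0, 92.9 and 66.8, against 3.04, 3.29 and 3.46 in WT small intestine. The groups were apart by a wide margin, and the log2 fold change was 4.49 (SE 0.26, adjusted p = 1.13e-05), or 22.4-fold. The effects in the 2 kinds of tumour differed by -0.32 on the log2 scale (95% interval -1.52 to 0.89, adjusted p = 0.698), but by -1.18 (adjusted p = 0.0263) without BA tumour 4.

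At day 30, Serpine2 was at 9.58, 5.73, 8.21, 8.05 and 5.57 normalised CPM in BA mice and at 14.1, 10.9, 10.3 and 13.3 in WT mice. Every BA mouse was below every WT mouse, and the level fell by 0.72 on the log2 scale (SE 0.18, adjusted p = 0.00465). In d30 A mice it was at 11.8, 13.7, 12.9 and 10.9, a level close to that of WT, with a log2 fold change of 0.03 (95% interval -0.27 to 0.32, adjusted p = 0.952). The d30 BA mice were below d30 A mice as well, with a log2 fold change of -0.72 (SE 0.18, adjusted p = 0.00730) and no overlap. Both calls were lost when all 5 day-30 groups shared 1 fit, with adjusted p-values of 0.136 and 0.122. In the same d30 BA mice 8 of 10 fibroblast markers were lower than in WT, with a median log2 fold change of -0.55, and so were 6 of 8 smooth muscle markers. Higher were 8 of 10 epithelial markers, with a median of 0.73. Among all genes 29.3% were called lower and 25.8% higher. Whether this shift between cell types bears on Serpine2 was not tested.

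With antibiotics, Serpine2 in BA mice was at 5.41, 8.53, 23.1, 5.24 and 12.6 normalised CPM, and mouse 3, highest for Plat, was again highest. The log2 fold change against WT was -0.12 (adjusted p = 0.847), and -0.63 (adjusted p = 0.0695) without mouse 3. Against untreated BA mice it was 0.59 (95% interval -0.19 to 1.38, adjusted p = 0.328). In sulindac-treated d30 A mice Serpine2 was at 27.2, 12.2, 6.49 and 9.93, with log2 fold changes of 0.21 against WT (adjusted p = 0.861) and 0.20 against untreated d30 A mice (adjusted p = 1.00), and -0.33 and -0.36 without mouse 1. The effect in BA tumours exceeded that at day 30 by 4.85 on the log2 scale (SE 0.59, adjusted p = 0.000123), the largest of the differences between effects tested for these genes. This difference was not fitted with a term for sex.

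On day 4 after loss of Apc, Serpine2 remained low in most mice. It ranged from 0 to 46.5 normalised CPM in 10 Apcfl/fl mice (median 4.34) and from 3.56 to 6.03 in 6 WT mice (median 4.82). Mouse 5, with 1718 reads, was the only mouse above the WT range, and mouse 1 had 0 reads of 516985. Its log2 fold change was 0.87 (SE 0.61, adjusted p = 0.241), and it was -0.21 (adjusted p = 0.807) without mouse 5. Mouse 5 also had the highest Plat and Plaur of its group and the highest summed fibroblast markers, at 2555 CPM against 427 to 1311 in the other 9 mice. Its macrophage sum, 671 against 206 to 497, and endothelial sum, 168 against 66.4 to 151, were the highest too. Its neutrophil sum, 36.6, was below the 44.7 of mouse 10. The effect in Apcfl/+ tumours exceeded that on day 4 by 3.53 on the log2 scale (SE 0.95, adjusted p = 0.00923), and by 4.62 (adjusted p = 1.21e-07) without mouse 5.

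**Figure D3:**
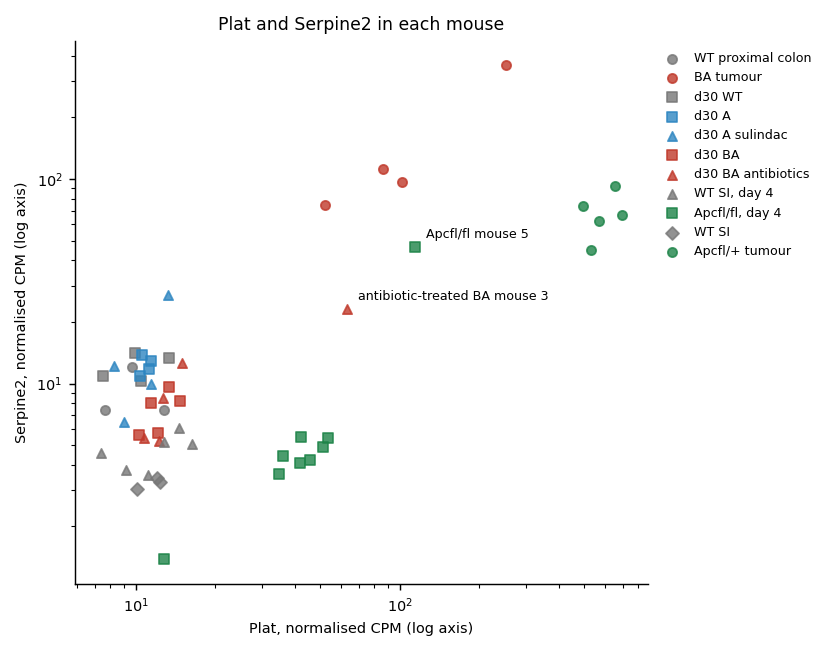
Plat (x axis) and Serpine2 (y axis) in normalised CPM, both on log axes, in each mouse, with 1 symbol per group. Tumours of both kinds lie at the upper right, Apcfl/fl mouse 5 and BA mouse 3 on antibiotics stand apart from their groups toward them, and most other Apcfl/fl mice have raised Plat beside Serpine2 near WT (mouse 8 is low in both, and mouse 1, with no Serpine2 reads, is not drawn).

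Serpinb2, which encodes an inhibitor found mostly inside cells, was close to the floor everywhere. No library held more than 25 reads, and group means ran from 0.0396 normalised CPM in sulindac-treated d30 A mice to 0.512 in WT small intestine on day 4. The count filter left it out of all 10 comparisons of 2 groups. In the edgeR fits without a filter it passed in none of them, and its smallest adjusted p, 0.0559, was that of Apcfl/fl mice against WT, with a log2 fold change of -1.46 (SE 0.56). In d30 BA mice it had 0 reads in 4 of 5 libraries. The highest values were 1.32 in WT small intestine mouse 3 of day 4 and 1.09 in BA mouse 3 on antibiotics. Of its 36-base words 11% occur in other genes, against at most 1.03% for the other 4 members, so even these counts are uncertain.

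Counting over members, 4 of 4 tested rose in Apcfl/+ tumours, where 31.4% of all 20567 genes tested were called higher and 61.5% in either direction. In BA tumours 3 of 4 rose, where 7.46% of all genes were called higher and 13.2% in either direction. In Apcfl/fl mice 2 of 4 rose, beside 27.5% of genes higher and 54.2% in all. In d30 BA mice 1 rose and 1 fell, beside 25.8% higher and 29.3% lower (55.1% in all). In BA mice on antibiotics 1 rose relative to WT, beside 21.8% higher and 39.6% in all. None of the 4 passed in d30 A mice, where 0.0960% of genes were higher and 0.141% changed in all, or in d30 A mice on sulindac, where 0.0507% were called, each of them higher. Of the 7 comparisons with WT, those of the tumours had the most tested members called. The median log2 fold change of the 4 tested genes was 3.69 in Apcfl/+ tumours and 3.38 in BA tumours, beside 0.03 over all genes in each. It was 1.33 in Apcfl/fl mice and -0.05 in d30 BA mice, beside 0.00 and -0.03 over all genes. Between d30 BA and d30 A mice 1 of 4 was higher and 1 lower, beside 21.7% higher and 23.6% lower among all genes (45.3% in all). Between BA mice with and without antibiotics none of 4 passed, beside 4.53% higher and 13.0% in all, and between sulindac-treated and untreated d30 A mice none passed, beside 0% of all genes.

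The order of group means differed between members. For Plat, Apcfl/+ tumours stood first at 588 ± 82.5 normalised CPM (SD, n = 5), with no overlap with BA tumours, the next at 123 ± 89.2 (SD, n = 4), and all later neighbours overlapped. For Serpine2, BA tumours came first at 161 ± 133 (SD, n = 4) and overlapped with Apcfl/+ tumours at 68.2 ± 17.5 (SD, n = 5), which were apart from the next group, sulindac-treated d30 A mice at 13.9 ± 9.12 (SD, n = 4), though Apcfl/fl mouse 5 reached their range. For Plaur, BA tumours, BA mice on antibiotics and d30 BA mice were highest, at 73.8 ± 28.2 (SD, n = 4), 67.7 ± 9.61 (SD, n = 5) and 64.4 ± 13.7 (SD, n = 5), and overlapped with each other. For Plau, Apcfl/+ tumours came first at 64.8 ± 15.1 (SD, n = 5), and their range overlapped with that of BA mice on antibiotics, second at 40.7 ± 7.18 (SD, n = 5).

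Markers of several cell types moved in both directions beside the tumour changes. The summed level of 10 fibroblast markers was 4880 to 5813 CPM in BA tumours and 1703 to 2812 in WT proximal colon, and 3068 to 3851 in Apcfl/+ tumours and 1453 to 1864 in WT small intestine. That of 9 neutrophil markers was 40.1 to 136 in BA tumours against 9.47 to 16.6, and 86.4 to 159 in Apcfl/+ tumours against 33.5 to 49.0. Summed endothelial markers were also higher in both kinds of tumour, at 137 to 305 against 95.6 to 121 and at 276 to 352 against 180 to 195, and no marker list had a gene at 0 in all libraries of any group. Summed macrophage markers were higher in BA tumours, at 750 to 2390 against 552 to 638. In Apcfl/+ tumours they overlapped with WT, at 332 to 813 against 396 to 501. Summed smooth muscle markers were lower in Apcfl/+ tumours, at 389 to 774 against 833 to 1503. In BA tumours their median was 2060 against 5470, and the ranges overlapped. Of 8 smooth muscle markers 4 were called lower in Apcfl/+ tumours and 3 in BA tumours, beside 6189 of 20567 and 1096 of 19188 genes. Epithelial sums overlapped with WT in both, at 9288 to 14239 against 10113 to 13097 in BA tumours and 6235 to 11960 against 7267 to 8518 in Apcfl/+ tumours. Singly, 4 of 10 fibroblast, 8 of 9 neutrophil, 4 of 8 endothelial and 3 of 10 macrophage markers were called higher in BA tumours. The share over all genes was 7.46%. For Apcfl/+ tumours the counts were 7, 7, 6 and 0, beside 31.4% of all genes, and 1 fibroblast and 1 macrophage marker were called lower. Of 10 epithelial markers 1 was higher in BA tumours, and 5 were higher and 1 lower in Apcfl/+ tumours. Which cells carried the activator, receptor or inhibitor reads was not tested. In d30 BA mice, where Plaur was raised too, the fibroblast sum was 1109 to 1395 CPM against 1491 to 1845 in d30 WT mice. The neutrophil sum was 4.46 to 12.8 against 11.7 to 14.9, with 3 of these markers passing the count filter. The macrophage sum of d30 BA mice, 310 to 458, overlapped with the 353 to 475 of WT mice. The epithelial sum was 21269 to 25478, against 10908 to 13090. Whether these shifts bear on Plaur was not tested.

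Partners of the system were read from a list of 38 genes that encode plasminogen and its receptors, clearance receptors, integrins, further serpins, proteases that act upstream, and substrates. Plg, the gene of plasminogen itself, passed the count filter in no comparison and was not tested. In BA tumours 8 of 29 tested were higher and 1 lower, where 13.2% of all genes were called, with a median log2 fold change of 0.49. Masp1, a protease of the lectin pathway, rose by 2.91 on the log2 scale (adjusted p = 0.00232) and Itgb2, a leukocyte integrin chain, by 1.89 (adjusted p = 0.00670). The plasminogen receptor gene Plgrkt fell by 1.37 (adjusted p = 0.0107), and Mst1r, the receptor of a plasminogen-related growth factor, rose by 0.77 (adjusted p = 0.0245).

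In Apcfl/+ tumours 14 of 30 were higher and 5 lower, a share near the 61.5% of all genes called, with a median of 0.32. Hpn, a membrane-bound serine protease known to activate the hepatocyte growth factor precursor, rose by 3.32 (adjusted p = 0.000104) and Masp1 by 2.88 (adjusted p = 0.0141). The dipeptidyl peptidase genes Dpp4 and Fap were lower, with log2 fold changes of -3.42 (adjusted p = 0.000542) and -1.17 (adjusted p = 0.00135). Fap is also among the fibroblast markers, whose sum was higher in these tumours. On day 4, 4 of 30 were higher and 10 lower, where 54.2% of all genes were called, with a median of -0.16. Vldlr and Itga5, a clearance receptor and an integrin chain, rose by 1.11 and 0.95 (adjusted p = 0.00107 and 0.00856), while Klkb1, prekallikrein, and Dpp4 stood lowest, at -2.99 and -1.26 (adjusted p = 8.48e-05 and 7.60e-05). Klkb1 was at a mean of 0.174 normalised CPM in Apcfl/fl mice, at the floor, and 1.69 in WT mice, so the size of its change is uncertain.

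At day 30 the partners that rose most with Plaur in BA mice were Anxa2 and S100a10, whose products form a plasminogen receptor together. In d30 BA mice 10 of 28 were higher and 7 lower than in WT, a share near the 55.1% of all genes called, with a median of 0.05. Anxa2 was at a mean of 2986 normalised CPM against 633 in WT, higher by 2.22 on the log2 scale (adjusted p = 1.20e-07). S100a10 was at 851 against 289, higher by 1.54 (adjusted p = 1.72e-06), close to the next partner at 1.49. Serpini1, neuroserpin, an inhibitor of tissue plasminogen activator, fell by 1.95 (adjusted p = 4.47e-05), and Fap by 0.85 (adjusted p = 0.000277). Fap counts among the fibroblast markers called lower in these mice as well. Under antibiotics 10 of 28 were higher and 5 lower than in WT, where 39.6% of all genes were called, with a median of -0.15, again with Anxa2 (2.40, adjusted p = 7.92e-07) and S100a10 (1.96, adjusted p = 2.52e-06) highest. Serpini1 and Sorl1, a sorting receptor, were lowest there, with log2 fold changes of -1.22 (adjusted p = 0.0165) and -0.67 (adjusted p = 0.000875). Between BA mice with and without antibiotics 1 of 29 was higher and 2 lower, near the 13.0% called among all genes (median 0.03), S100a10 by 0.41 (adjusted p = 0.0269) and Itgav and Plgrkt by -0.61 and -0.37 (adjusted p = 0.0260 and 0.00993). Relative to d30 A mice 11 of 28 were higher and 6 lower, where 45.3% of all genes were called (median 0.23), with Anxa2 at 1.81 (adjusted p = 4.41e-05) and Itgav, the alpha chain of the vitronectin receptor, at 1.72 (adjusted p = 6.88e-05) highest. Serpini1 and Hgf, the gene of hepatocyte growth factor, were lowest at -1.68 and -1.45 (adjusted p = 0.000237 and 0.0285). None of 28 passed in d30 A mice with or without sulindac, nor between these groups. The medians were -0.00333 in d30 A mice without sulindac against WT, -0.02 in those with sulindac against WT, and 0.04 between them. Over all genes the medians of these comparisons lay between -0.06 and 0.03. Between sulindac-treated and untreated d30 A mice edgeR called 0 of 17568 genes, with 460 at an unadjusted p under 0.05 and 5 called by DESeq2.

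**Figure D4:**
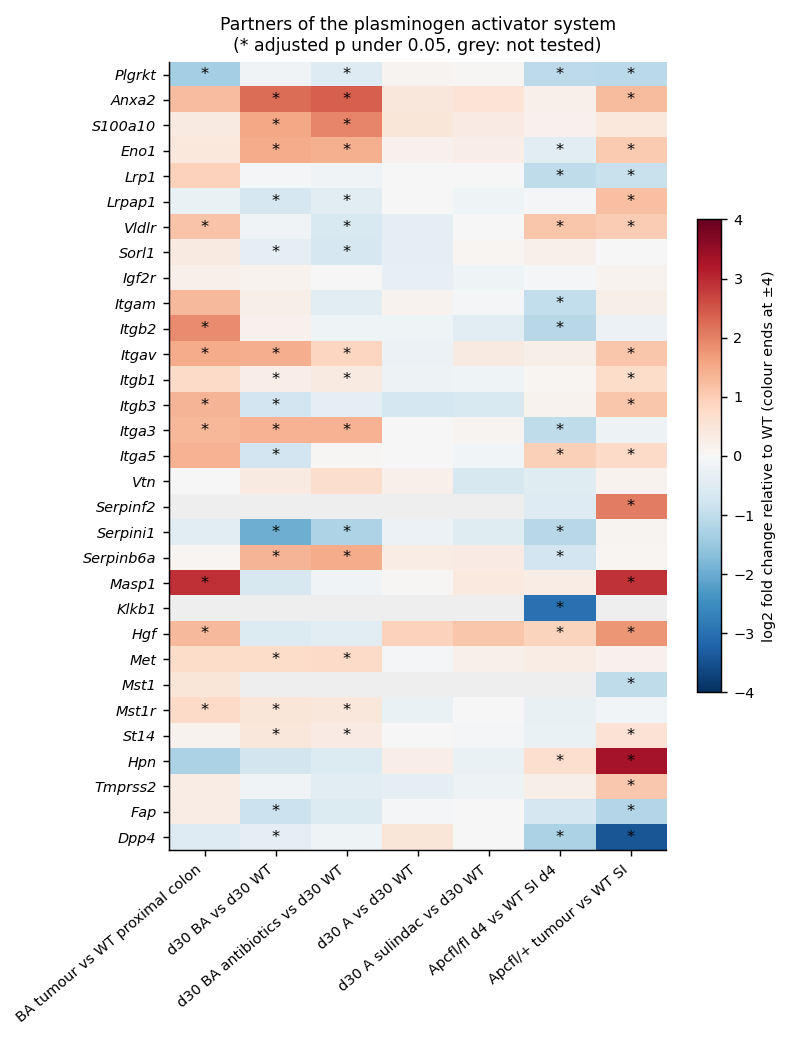
Log2 fold change relative to WT (colour, ends at ±4) of the listed partner genes that passed the count filter (rows) in 7 comparisons (columns), with an asterisk at an adjusted p under 0.05. Anxa2 is highest and S100a10 second in both day-30 BA groups, Masp1 stands out in both kinds of tumour and Hpn in Apcfl/+ tumours, while neither group of d30 A mice has an asterisk.

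The partner list also differed between settings when the effects themselves were tested. Between BA and Apcfl/+ tumours 7 of 30 partners had a higher effect in BA tumours and 4 a lower one, and among the members 2 of 4 had a lower one, where 21.9% of all genes were called higher and 17.7% lower (39.7% in all). Dpp4 and Itgb2 lay at one end, where the log2 fold changes differed by 2.93 and 2.15 (adjusted p = 0.0191 and 0.000591). At the other end were Serpinf2, the gene of the plasmin inhibitor α2-antiplasmin, and Hpn, at -4.67 and -4.59 (adjusted p = 0.00346 and 0.000824). Serpinf2 passed the count filter between Apcfl/+ tumours and WT but not between BA tumours and WT, so its difference rests on low counts on the BA side. Between BA tumours and d30 BA mice 8 of 31 partners had a higher and 5 a lower effect, and 2 of 4 members a higher one, beside 9.87% of all genes higher and 16.3% in all. Masp1 and Itga5 were highest there, at 3.54 and 2.13 (adjusted p = 0.000129 and 0.0149), and Serpinf2 and Serpinb6a lowest, at -2.76 and -1.29 (adjusted p = 0.0441 and 0.00229). Serpinf2 passed the count filter in neither of these comparisons with WT alone, so its value is uncertain. Between Apcfl/+ tumours and day 4 it was 12 and 1 of 31 partners and 3 of 5 members higher, beside 12.4% higher and 24.7% in all among all genes. Serpinb2 passed the count filter in that larger fit alone, with a difference of 0.57 (adjusted p = 0.682). Hpn and Masp1 were highest, at 2.62 and 2.54 (adjusted p = 2.89e-05 and 0.0204), Dpp4 lowest at -2.18 (adjusted p = 0.00225) and St14, matriptase, the least raised at 0.81 (adjusted p = 0.0193).

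Genes with the most similar pattern were sought among 13871 genes by Pearson's r over the 11 group means of log2 normalised CPM, points that include tumours, tissues and treatments and share the scaling of their libraries. Closest to Plat were Clu (r = 0.98), Tnfrsf11b (r = 0.97) and Mmp14 (r = 0.97), and to Plaur Syt8 (r = 0.98), F3 (r = 0.97) and Tead4 (r = 0.97). Closest to Serpine2 were Bmper, Tm4sf1 and Lox, each with r = 0.96. The nearest genes to Plau, Zfp740 (r = 0.91), Htra1 (r = 0.90) and AI597479 (r = 0.87), followed it less closely. The values are descriptions of these 11 means.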

How the data were processed

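RNA of whole proximal colon or small intestine of 53 mice was sequenced. The authors checked reads with FastQC 0.11.8, trimmed them with Trim Galore 0.6.4, aligned them to GRCm38 with HISAT2 2.1.0 and counted them on genes with featureCounts 1.6.4 (versions per the submitters' processing notes), and deposited raw counts without normalisation in 1 table. Whether strand was used, and how reads mapping to several places were counted, is not given in the sources used here, and 0 columns were left unused.

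Groups were taken from the labels. Genes were named from GENCODE M21. Low counts were removed with filterByExpr, libraries scaled by TMM and the 2 groups of each of 10 comparisons fitted alone with edgeR 4.0.16 (quasi-likelihood, Benjamini-Hochberg, threshold 0.05). The authors used DESeq2, which is an alternative here (1.42.0). Differences between effects were contrasts over 4 groups without a term for sex, and 95% intervals rest on the normal approximation. Marker sums are normalised CPM over a list, and per-kb levels divide by the union of exons. Similar genes have a mean log2 CPM (prior count 2) of at least 1. The tools were run in R 4.3.3 and in Python 3.11.15 with pandas 2.3.3.

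All 5 members were read in every comparison where they passed the count filter, though not every value is printed. Of the partner list, the 2 called genes with the largest and the 2 with the smallest log2 fold change were named. Of 10 neutrophil markers, 9 matched the annotation. The members and lists were chosen with earlier results of these data known. Totals of 516985 to 32824795 counts limit precision. Replicate numbers do not pair mice: deviations of same-numbered mice correlated between -0.35 and 0.16 over 41 pairs, and no comparison had every pair over 0.1. Alternatives were RLE scaling, no filter, DESeq2, a replicate block, 1 fit of all day-30 groups, a term for sex (Ddx3y over 10 CPM) and each library left out. The calling was tested on simulated data. Fits of Apcfl/fl mice without mice 1, 5 and 8 and within Gm13394 levels were chosen after the data were seen.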

Additional observations from a re-analysis of the deposited data

Results flagged for a closer look

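Single mice stood far from the rest of their group, by Dixon's criterion, in 9 of 45 combinations of gene and group searched. The criterion assumes normal values and was applied to normalised CPM without a log, so no chance rate can be set beside this count. Apcfl/fl mouse 5 was such a mouse for Plaur (51.5 normalised CPM), Plat (114) and Serpine2 (46.5), and BA mouse 3 on antibiotics for Plat (63.2) and Serpinb2 (1.09). BA tumour 4 stood apart for Serpine2, at 359. For Serpinb2, d30 BA mouse 5 (0.363), Apcfl/fl mouse 7 (0.617) and WT small intestine mouse 3 of day 4 (1.32) did so too, each on 25 reads or fewer.

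Effects that differed between settings by the interaction test in edgeR were the following, as differences on the log2 scale. Between BA and Apcfl/+ tumours these were -1.92 for Plau and -2.15 for Plat. Between BA tumours and d30 BA mice they were 3.35 for Plat and 4.85 for Serpine2. Between Apcfl/+ tumours and Apcfl/fl mice on day 4 they were 1.78 for Plau, 3.75 for Plat and 3.53 for Serpine2. The first pair also differs in tissue and in labelled background, and the third in labelled background, which cannot be told apart from genotype. None of these differences was fitted with a term for sex. Ddx3y was over 10 CPM in 3 of 4 BA tumours and 0 of 3 WT proximal colons, but in every d30 BA and d30 WT mouse.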

How the results depend on the processing

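The calls of Plaur, Plat and Serpine2 in both kinds of tumour, of Plau in Apcfl/+ tumours, of Plaur in both day-30 BA groups, of Plaur and Plat in Apcfl/fl mice and of Serpine2 in d30 BA mice held with each library left out in turn, with RLE scaling, without the filter and in DESeq2. A term for sex ended those in BA tumours, at 2.51 for Plaur, 2.28 for Plat and 2.96 for Serpine2, and cut the genes called from 2527 to 168 there and from 12650 to 7030 in Apcfl/+ tumours, where all 4 members passed. One fit of all day-30 groups ended the calls of Serpine2 in d30 BA mice against WT (-0.72) and d30 A mice (-0.74), added that of Plat under antibiotics (1.14, adjusted p = 0.0280), and called 29 genes for sulindac against WT (9 otherwise) and 1074 for antibiotics (2172 otherwise). The cause was not tested for any of these. With the term for sex, the effect rests on 1 tumour of each kind beside 3 WT mice, so sex and that mouse cannot be separated.

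DESeq2 called 3798 genes in BA tumours, 136 in d30 A mice (25 otherwise), 111 with sulindac and 5 between sulindac and none, put Serpine2 in Apcfl/fl mice at -0.17, and gave Plat no adjusted p in either antibiotic comparison. Without the filter 72, 24 and 1 genes were called for d30 A, for sulindac against WT and between them. A replicate block called 848 genes in BA tumours, 8211 in Apcfl/+ tumours, 1284 for antibiotics, 2 for sulindac against WT and 1 against none, and gave 0.43 for Plau in Apcfl/fl mice (adjusted p = 0.0138) and -0.0095 for Serpine2 with sulindac against none. It moved no other call of a member, and the numbers are names, not pairs. Plau in Apcfl/fl mice also passed at 0.41 without mice 1, 5 and 8 and at 0.37 with Gm13394 at or under 10 CPM, where the set over 10 CPM called 5490 genes (9504 otherwise).

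With each library left out, genes called ranged from 696 (without WT proximal colon 1) to 3641 in BA tumours (1089 without WT proximal colon 3 and 1380 without tumour 4), 15 to 28 in d30 A mice, 4 to 18 with sulindac and 1300 to 2683 for antibiotics, and those whose effects differed from 2225 to 5051 between BA tumours and day 30 and from 3603 to 7295 between Apcfl/+ tumours and day 4. Among log2 fold changes that changed sign or call, antibiotics against WT gave -0.021 to 0.19 for Plau and -0.63 to 0.024 for Serpine2, and against untreated BA mice -0.031 to 0.18 for Plaur. In d30 A mice Plaur ranged from -0.35 to 0.39, Plat from -0.038 to 0.24 and Serpine2 from -0.043 to 0.11. With sulindac, Plat ranged from -0.10 to 0.19 and Serpine2 from -0.33 to 0.44 against WT, and Plau from -0.023 to 0.46, Plat from -0.19 to 0.037 and Serpine2 from -0.36 to 0.45 against untreated mice. In Apcfl/fl mice Plau ranged from 0.21 to 0.41 and Serpine2 from -0.21 to 1.01. The difference between BA and Apcfl/+ tumours ranged from -0.10 to 0.57 for Plaur and from -1.18 to -0.032 for Serpine2, and that between Apcfl/+ tumours and day 4 from 0.91 to 1.38 for Plaur. Depth limits Serpinb2 in every group and Apcfl/fl mouse 1 throughout.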
